A study of Mus musculus with 8 samples.

Results

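Aquaporins are membrane channels that carry water, and in some members small uncharged solutes, across cell membranes. The genes examined were Aqp1, Aqp3, Aqp4, Aqp7, Aqp8 and Aqp11, a list of symbols matched through their Ensembl identifiers, and all 6 were present among the 45706 genes counted in crypts of the small intestine (SI) and colon (COL). Crypts are the epithelial pockets that hold the intestinal stem and progenitor cells. They were isolated from 4 wild type C57BL/6N mice, 2 female (replicates 1 and 4) and 2 male (replicates 2 and 3), so that 4 SI libraries were set against 4 COL libraries of the same animals. The labels name no treatment and no transgene in either tissue. The study asked how crypts of both tissues differ before any oncogene acts. The other mouse aquaporin genes, Mip, Aqp2, Aqp5, Aqp6, Aqp9 and Aqp12, are covered by their counts.

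Aquaporins assemble as tetramers in which every subunit forms its own pore. Aqp1 and Aqp4 are water channels. Aqp1 is best known from red blood cells, small-vessel endothelium and kidney tubules, and Aqp4 from the end-feet of astrocytes and the basolateral membrane of several epithelia. Aqp3 and Aqp7 belong to the aquaglyceroporins, which also pass glycerol. Aqp3 is typical of basolateral epithelial membranes and Aqp7 of adipocytes. Aqp8 passes water and also hydrogen peroxide, and Aqp11 is a divergent member found in the endoplasmic reticulum. In the gut, water follows the salt and nutrients that the epithelium absorbs or secretes, and aquaporins offer it a path through the cells.

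Positions are given on the mouse build GRCm38 (mm10). Aqp3 (ENSMUSG00000028435, chr4:41092722-41098183, minus strand) and Aqp7 (ENSMUSG00000028427, chr4:41033074-41048139, minus strand) are neighbours, 44582 bases apart. Aqp8 (ENSMUSG00000030762, chr7:123462291-123468004, plus strand) and Aqp11 (ENSMUSG00000042797, chr7:97724006-97738289, minus strand) share a chromosome but lie far apart. Aqp1 (ENSMUSG00000004655) is at chr6:55336432-55348555 on the plus strand and the position of Aqp4 is given with its values. No other counted gene with a known position overlaps any of the 6. Of the 50-base stretches of the longest transcript, 4.60% in Aqp7, 0.383% in Aqp11 and 0.175% in Aqp3 were found in other genes' transcripts as well, so their reads could be shared, and none in Aqp1, Aqp4 or Aqp8.

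The promoters of the genes with the largest tissue differences are shown, because Aqp3 and Aqp7 were both near 0 in COL crypts whereas Aqp8 was high there. Each is the 250 bases before a transcription start that RefSeq lists on GRCm38.p6, read 5′ to 3′ on the strand of the gene. RefSeq lists 2 starts for Aqp7, and the window of the other start is not shown. Capitals mark the matches to 5 short motifs searched on both strands.
Aqp3, chr4:41098184-41098433, minus strand: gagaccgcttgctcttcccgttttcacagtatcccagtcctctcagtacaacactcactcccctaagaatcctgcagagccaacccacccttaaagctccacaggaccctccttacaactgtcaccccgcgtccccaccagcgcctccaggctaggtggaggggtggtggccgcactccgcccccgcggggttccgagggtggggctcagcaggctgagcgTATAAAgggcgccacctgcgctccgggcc
Aqp7, chr4:41048137-41048386, minus strand: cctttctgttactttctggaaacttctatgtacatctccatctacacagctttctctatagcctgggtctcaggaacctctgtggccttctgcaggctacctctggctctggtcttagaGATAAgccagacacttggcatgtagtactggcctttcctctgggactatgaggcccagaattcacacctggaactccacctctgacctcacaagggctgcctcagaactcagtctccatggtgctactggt
Aqp8, chr7:123462044-123462293, plus strand: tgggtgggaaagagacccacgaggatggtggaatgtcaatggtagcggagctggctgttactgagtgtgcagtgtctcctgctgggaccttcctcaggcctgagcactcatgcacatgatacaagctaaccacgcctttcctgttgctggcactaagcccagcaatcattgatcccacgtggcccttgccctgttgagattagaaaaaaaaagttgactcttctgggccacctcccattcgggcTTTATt
The motifs were TATAAA for the core promoter box of that name, TTTAT for CDX factors, GATAA for the zinc finger factors named after it, CAAAGTCCA for HNF4 and GTTAAT for HNF1. In Aqp3 the capitals are TATAAA, 29 bases before the start, with TTTAT read on the opposite strand and overlapping it. In Aqp7 they are GATAA, 131 bases before the start, and in Aqp8 they are TTTAT, 6 bases before the start. Across 32841 windows of the same length, TATAAA occurred in 12.4%, TTTAT in 37.3%, GATAA in 22.6%, CAAAGTCCA in 0.384% and GTTAAT in 6.43%. The windows of Aqp1 and Aqp11 held none of the 5 motifs. RefSeq had an entry for 5 of the 6 genes. A match is a description of the letters only.

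The tissue of the libraries was checked against marker genes before the aquaporins were compared. Total counts ran from 15969428 to 32908060 per library. Levels are given as CPM, the read count scaled by the TMM-adjusted library size. The epithelial genes Epcam and Cdh1 had mean levels of 653 and 648 CPM in SI and of 466 and 652 CPM in COL. Of the 6 epithelial markers, Vil1 (log2 fold change of SI over COL 3.25, edgeR adjusted p = 0.00038) and Krt20 (3.06, adjusted p = 0.00653) were higher in SI. Krt18 was higher in COL (-1.40, adjusted p = 0.00949), and 3 were not called. Crypt base stem cell markers were found in every library except that Ascl2 had 0 counts in SI1, where Lgr5 was at 0.634 CPM. Of this list, 1 of 6 genes (Znrf3) was higher in COL and none in SI. Over all genes tested, 15.5% were higher in SI and 12.9% in COL, here and for the later marker lists. The stem cell marker sums were 53.5 to 114.3 CPM in SI and 89.7 to 97.7 CPM in COL. Differentiated enterocyte markers were also abundant in SI, with 5 of 5 higher there and sums of 11259 to 30016 CPM against 6.84 to 40.5 CPM in COL. The library SI1 had the highest enterocyte sum and the lowest Paneth cell sum of SI, 294.5 CPM against 1509 to 3513 CPM in the others. The mitochondrially encoded share of the counts was low in SI1, SI4, COL3 and COL4 (4.83% to 7.35%). It was high, 22.7% to 50.8%, in the other 4 libraries, so each result was also computed within these sets. The low set holds SI1 and SI4, both female, against COL3 (male) and COL4 (female). The high set holds SI2 and SI3, both male, against COL1 (female) and COL2 (male). The sets are thus small and unbalanced in sex. In such bulk samples, fewer cells of a type and less RNA per cell cannot be told apart.

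The listed aquaporins were split between the tissues. Aqp3, Aqp7 and Aqp11 were higher in SI crypts and Aqp4 and Aqp8 in COL crypts, while Aqp1 did not pass the test. The edgeR quasi-likelihood test called 5 of the 6 genes at an adjusted p below 0.05, against 28.4% of the 14491 genes tested. By direction, 3 of 6 were higher in SI, against 15.5% of all genes, and 2 of 6 in COL, against 12.9%. The CPM of the 4 SI and the 4 COL libraries did not overlap for 5 of the 6, against 33.5% of all genes. The list was chosen with earlier results of these data known, so these shares describe it and are no test of it. All 6 passed the filter on low counts. Aqp3 and Aqp7 passed it through SI alone, where they are high, and in COL they had at most 28 and 9 counts in a library. Scaling by library size alone shifted the median over all genes on the log2 scale from -0.09 to -0.82 and the share of calls higher in SI from 54.7% to 18.9%, but changed none of these 6 verdicts.

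**Figure D1:**
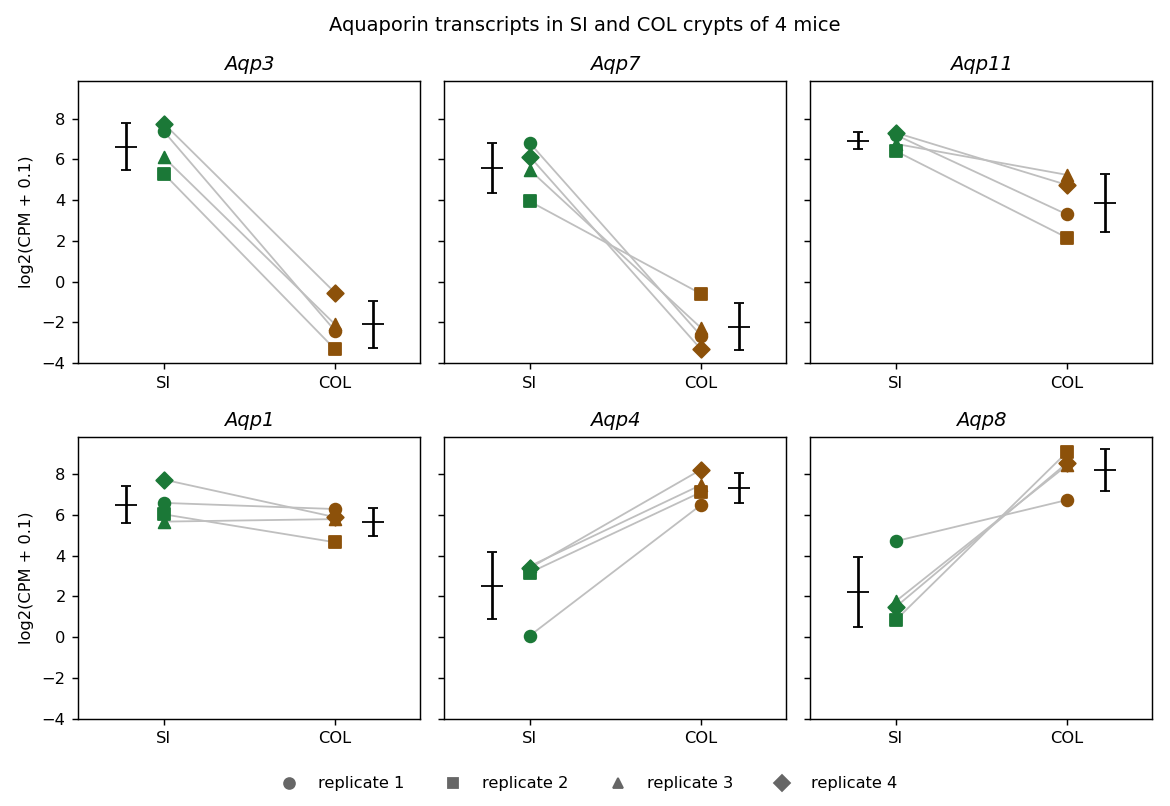
Levels of the 6 aquaporin transcripts as log2(CPM + 0.1) in SI and COL crypts, with grey lines joining the libraries of the same mouse and black bars giving the mean ± SD of 4 libraries. Aqp3, Aqp7 and Aqp11 sit higher in every SI library than in any COL library, Aqp4 and Aqp8 lower, and the Aqp1 points of both tissues overlap.

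Aqp3 and Aqp7 had the highest fitted differences, close to each other relative to their errors, and both rest on few COL counts. Aqp3 was at 165.1, 39.0, 68.4 and 216.0 CPM in SI1 to SI4 and 0.0880, 0, 0.134 and 0.586 CPM in COL1 to COL4, from 646 to 4717 counts in SI and 3, 0, 5 and 28 counts in COL. It was thus plainly detected in every SI library and close to the limit of detection in COL, where a count of 0 in COL2 allows a level of up to 0.186 CPM. The mean was 122.1 ± 82.6 CPM over the SI libraries and 0.202 ± 0.262 CPM over the COL libraries (SD, n = 4). The fitted log2 fold change was 9.00 ± 0.92 (SE), a 510-fold difference, with an adjusted p of 4.35e-05 in edgeR, and it ranked 66th of 14491 genes toward SI. Within the mice, the log2 difference was 9.78, 8.61, 8.19 and 8.30 in replicates 1 to 4. The value rests in part on COL4, which held most of the COL counts, and was 10.37 without it. Within the libraries of low and of high mitochondrial share it was 8.96 and 9.65, past the threshold in both.

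Aqp7, its neighbour on chromosome 4 and the other aquaglyceroporin, showed the same split. It reached 110.9, 15.2, 44.4 and 69.9 CPM in SI1 to SI4 but only 0.0587, 0.559, 0.107 and 0 CPM in COL1 to COL4, where it had 2, 9, 4 and 0 counts. SI2 was the lowest SI library, as it was for Aqp3, and still lay far above all COL libraries. On average, SI had 60.1 ± 40.6 CPM against 0.181 ± 0.256 CPM for COL (SD, n = 4). The log2 fold change was 8.80 ± 1.01 (SE), 446-fold, with an edgeR adjusted p of 8.55e-05, and Aqp7 ranked 70th toward SI. In replicate 2 the log2 difference within the mouse, 4.53, was smaller than the 9.45, 7.75 and 9.45 of replicates 1, 3 and 4. These sizes depend on the offset too, with a mean of 7.80 at 0.1 CPM and of 5.40 at 1 CPM. The fitted value was 10.12 without COL2, and it was 10.77 in the libraries of low and 6.78 in those of high mitochondrial share, past the threshold in both.

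The genes around this pair did not share so large a difference. Within 100 kb of Aqp3, 5 genes were tested and Aqp7 alone was called. Of all genes tested, 28.4% were called, a share that also stands beside the neighbour counts below. Within the same distance of Aqp7, 6 genes were tested, and Aqp3 and Chmp5, a subunit of the ESCRT-III membrane remodelling complex, were called. Chmp5 was higher in SI by 1.02 on the log2 scale (edgeR adjusted p = 0.0478). Nol6, 16243 bases beyond Aqp3, had a value of -0.78 (adjusted p = 0.127), and Nfx1, 7080 bases beyond Aqp7 on the other side, one of -0.24 (adjusted p = 0.523).

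Aqp11 was the third gene higher in SI, with a smaller difference. Its level was 146.8, 84.6, 108.2 and 158.2 CPM in SI1 to SI4 and 9.71, 4.35, 37.6 and 26.7 CPM in COL1 to COL4. The SI libraries were close to each other, whereas COL1 and COL2 were lower than COL3 and COL4, and the tissues did not overlap. The means were 124.5 ± 34.1 and 19.6 ± 15.3 CPM (SD, n = 4). The log2 fold change was 2.66 ± 0.58 (SE), 6.33-fold, with an edgeR adjusted p of 0.00503, and the difference within the mice was 3.90, 4.25, 1.52 and 2.56. COL1 and COL2 are also the COL libraries of high mitochondrial share. The log2 fold change was 3.68 within the high-share and 2.24 within the low-share libraries, past the threshold in both. Of the 3 genes tested within 100 kb of Aqp11, the kinase gene Pak1 was higher in SI by 0.88 (adjusted p = 0.0173), and Rsf1 and Clns1a were not called.

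Aqp8 was the most abundant listed aquaporin of COL crypts. It had 106.1, 540.7, 345.9 and 373.1 CPM in COL1 to COL4 against 26.1, 1.69, 3.30 and 2.70 CPM in SI1 to SI4. COL1 was the lowest COL library and SI1, from the same mouse, the highest SI library, and the tissues still did not overlap. The means were 341.4 ± 179.0 CPM in COL and 8.44 ± 11.8 CPM in SI (SD, n = 4). The log2 fold change was -5.33 ± 0.95 (SE), that is, 40.3-fold higher in COL, with an edgeR adjusted p of 0.00158, and Aqp8 ranked 212th of 14491 toward COL. The log2 difference within the mice was -2.02 in replicate 1 and -8.24, -6.67 and -7.06 in replicates 2 to 4. Without SI1 the fitted value was -7.03. It was -4.66 within the low-share libraries, which include SI1, and -7.05 within the high-share libraries, past the threshold in both. Both genes tested within 100 kb of Aqp8 were called in the opposite direction, Lcmt1, a methyltransferase gene, by 1.93 (adjusted p = 0.00131) and Arhgap17, a gene for a GTPase-activating protein, by 1.10 (adjusted p = 0.0155) toward SI.

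Aqp4 (ENSMUSG00000024411, chr18:15389496-15410982, minus strand) was the other gene higher in COL. Its level was 89.5, 138.5, 177.0 and 297.8 CPM in COL1 to COL4 and 0.951, 8.88, 11.1 and 10.4 CPM in SI1 to SI4. Every COL library exceeded every SI library, and SI1, the highest SI library for Aqp8, was the lowest for Aqp4. The means were 175.7 ± 88.9 CPM in COL and 7.83 ± 4.68 CPM in SI (SD, n = 4). The log2 fold change was -4.49 ± 0.68 (SE), 22.4-fold higher in COL, with an edgeR adjusted p of 0.000574. The differences within the mice were -6.41, -3.95, -3.98 and -4.83. The fitted value was -5.39 within the low-share and -3.57 within the high-share libraries, past the threshold in both. The only other counted gene with a known position within 100 kb, Chst9, had at most 3 counts in a library.

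Aqp1 did not pass the test between the tissues, and its difference was not resolved by these libraries. It had 96.1, 65.1, 50.8 and 212.3 CPM in SI1 to SI4 and 78.0, 25.1, 55.3 and 59.2 CPM in COL1 to COL4. The groups overlapped, with SI4 above all other libraries and COL2 below them. The means were 106.1 ± 73.3 and 54.4 ± 21.9 CPM (SD, n = 4), and the log2 fold change was 0.96 ± 0.47 (SE) with an edgeR adjusted p of 0.155. Aqp1 was higher in SI in 3 of 4 mice, by 0.30, 1.37 and 1.84 on the log2 scale in replicates 1, 2 and 4, and was -0.12 in replicate 3. Without SI4 the fitted value was 0.37. It was 1.42 (adjusted p = 0.0426) within the libraries of low mitochondrial share, which include SI4, and 0.07 (adjusted p = 0.952) within those of high share.

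The exact permutation test was also run for each gene. For Aqp3, Aqp4, Aqp7, Aqp8 and Aqp11 the two-sided exact p on log2(CPM + 0.1) was 0.0286, the smallest that the 70 assignments of 4 against 4 libraries allow. For Aqp1 the exact p was 0.2. For groups that do not overlap this p is fixed by their order, so it adds nothing to the separation described above.

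The make-up of the 6 transcripts was compared per length, as RPKM, the CPM divided by the length of the merged exons in kilobases. The order and the shares between genes depend on that length. For Aqp11 the merged exons had 9418 bases and the longest transcript 5798, against 2828 and 2527 for Aqp7. Levels per length of the longest transcript were not computed. In SI, the mean levels in falling order were Aqp3 at 66.8, Aqp1 at 40.4, Aqp7 at 21.2, Aqp11 at 13.2, Aqp8 at 5.34 and Aqp4 at 1.26 RPKM. Each neighbour in this order overlapped the next, and each gene exceeded the next in 3 of the 4 SI libraries. In COL the order was Aqp8 at 216.0, Aqp4 at 28.2, Aqp1 at 20.7, Aqp11 at 2.08, Aqp3 at 0.110 and Aqp7 at 0.0641 RPKM. Aqp8 lay above Aqp4, Aqp1 above Aqp11 and Aqp11 above Aqp3 without overlap, whereas Aqp4 and Aqp1, and Aqp3 and Aqp7, overlapped.

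**Figure D2:**
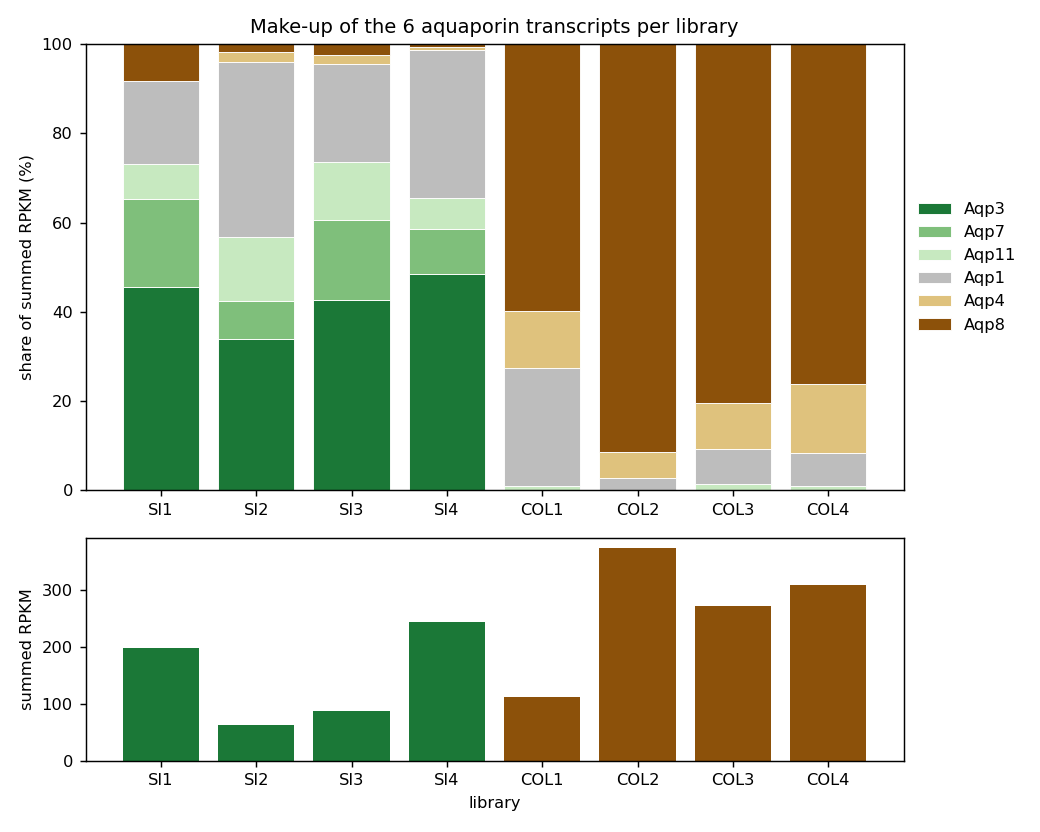
Share of each aquaporin in the summed RPKM of the 6 genes per library (upper bars, in percent) and the sum itself (lower bars, in RPKM, from 0). Aqp3 takes 33.9% to 48.4% of the sum in SI and Aqp8 takes 59.8% to 91.3% in COL.

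A different gene thus led in each tissue. Aqp8 was the leading transcript of all 4 COL libraries, with 59.8% to 91.3% of the summed RPKM, and made up 0.701% to 8.32% in SI. Aqp3 led in SI1, SI3 and SI4 and Aqp1 in SI2, where it took 39.4% against 33.9% for Aqp3. Aqp7 held 8.52% to 19.8% of the sum in SI and at most 0.0528% in COL. Aqp4 held 5.93% to 15.4% in COL and at most 2.26% in SI. The sums of both tissues overlapped, at 198.3, 63.0, 87.8 and 243.8 RPKM in SI and 112.2, 374.4, 272.4 and 309.5 RPKM in COL.

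The other 6 aquaporin genes were at or near the limit of detection, and none passed the filter. Aqp6 had 0 counts in all 8 libraries, which allows 0.0628 to 0.186 CPM per library at 3 counts. Mip, the lens aquaporin, and Aqp2, the vasopressin-regulated channel of the kidney, had at most 1 count in a library. Aqp5 had at most 3 and the aquaglyceroporin gene Aqp9 at most 8. Aqp12 was the exception in COL, with 0.909, 0.373, 1.15 and 0.984 CPM in COL1 to COL4 from at most 47 counts, against 0, 0, 0 and 0.229 CPM in SI. Such limits cover counting error only.

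Cells other than the epithelium are known sources of several of these channels, and their markers were therefore measured in the same libraries. For Aqp1, the endothelial list (7 genes, 3 tested) summed to 0.916 to 6.83 CPM in SI and 1.73 to 7.89 CPM in COL. Of the 3 tested genes, Pecam1 was higher in COL (log2 fold change -2.69) and none was higher in SI. Tek (2.81, edgeR adjusted p = 0.142) and Ptprb (0.81, adjusted p = 0.462) leaned to SI without being called. Under the filter, Plvap was at 0 in all SI libraries, whereas Cdh5, Kdr and Emcn had higher means in SI through SI2 alone. In SI1 to SI4 the endothelial sum was 3.58, 6.83, 2.18 and 0.916 CPM, beside 96.1, 65.1, 50.8 and 212.3 CPM of Aqp1. In COL1 to COL4 it was 1.73, 7.89, 3.61 and 3.29 CPM, beside 78.0, 25.1, 55.3 and 59.2 CPM of Aqp1. Red blood cell markers, of which 3 of 6 were higher in COL and none in SI, summed to 0.137 to 1.75 CPM in SI and 4.25 to 40.1 CPM in COL. In COL1 to COL4 they summed to 21.6, 25.8, 4.25 and 40.1 CPM, beside the same Aqp1 levels. For Aqp4, all 4 enteric glia markers were under the filter and summed to at most 0.846 CPM in SI and 3.54 CPM in COL. For Aqp7, the adipocyte gene Adipoq was at 0 in all 8 libraries, Plin1 had at most 2 counts and Lep at most 1. Plin4, also under the filter, had means of 0.0795 CPM in SI and 0.310 CPM in COL. Cidec, which encodes a lipid droplet protein, was the only gene tested of the 5 on the adipocyte list. It was higher in SI by 4.71 ± 0.81 (SE) on the log2 scale (edgeR adjusted p = 0.00129).

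**Figure D3:**
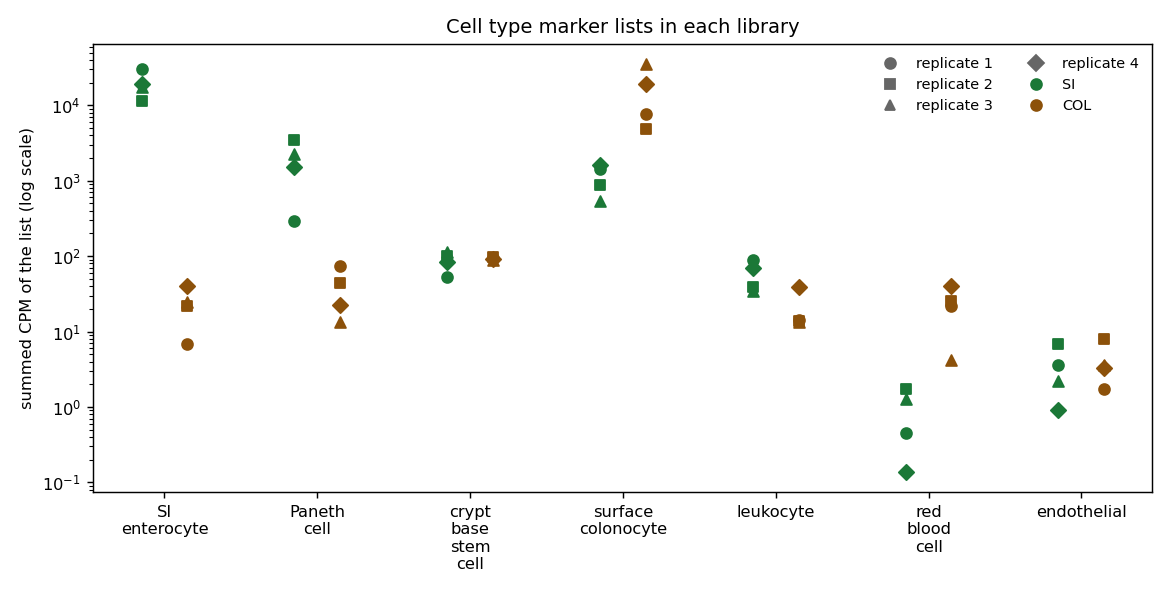
Summed CPM of marker lists in each library, on a log scale, with marker shapes for the 4 mice and colours for SI and COL. Enterocyte markers sum to 11259 to 30016 CPM in SI and 6.84 to 40.5 CPM in COL, and endothelial markers stay below 8 CPM in all libraries.

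Markers of epithelial and immune cells also moved with the tissue. Surface colonocyte markers summed to 545.7 to 1625 CPM in SI and 4905 to 34832 CPM in COL, with 3 of 5 higher in COL and 1, Ceacam20, higher in SI. This list shares Slc26a3 and Guca2a with the transport lists described next. Paneth cell markers summed to 13.5 to 73.0 CPM in COL, with 4 of 5 higher in SI. Leukocyte markers summed to 35.0 to 88.7 CPM in SI and 13.6 to 38.8 CPM in COL, with 1 of 6, the T cell gene Cd3e, higher in SI. Of the goblet cell markers, 2 of 6 (Muc2 and Spink4) were higher in COL and none in SI, with sums of 2764 to 10742 CPM in SI and 11916 to 20961 CPM in COL. No smooth muscle or fibroblast marker was called, and these lists summed to at most 12.3 and 6.77 CPM. These counts stand beside 15.5% of all genes tested higher in SI and 12.9% higher in COL. The part of these cell types in the aquaporin differences was not tested.

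Transport genes that set up the salt gradients that water follows also differed, in both directions. Of 11 salt and water absorption genes, 10 were tested, and the median log2 fold change was 0.61 beside -0.09 for all genes. Among them, 4 were higher in SI, against 15.5% of all genes, 3 were higher in COL, against 12.9%, and 3 were not called. Higher in SI were the anion exchanger gene Slc26a6 (8.75 ± 0.54, adjusted p = 5.92e-06), the sodium-glucose cotransporter gene Slc5a1 (5.63 ± 0.63, adjusted p = 7.34e-05) and the sodium pump subunit gene Atp1b1 (1.34 ± 0.31, adjusted p = 0.00802). Higher in COL were Atp12a, the colonic proton-potassium pump (-8.17 ± 1.17, adjusted p = 0.000354), and the epithelial sodium channel subunits Scnn1a (-2.72 ± 0.36, adjusted p = 0.000205) and Scnn1b. Scnn1b had 0 counts in all SI libraries and 81 to 509 in COL, at least 57.4-fold higher in COL with the SI libraries set at 3 counts each. Atp1b1 was not called when scaled by library size alone (adjusted p = 0.160) or within the high mitochondrial share (0.0524), and 2 genes of the list were then higher in SI in each case.

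**Figure D4:**
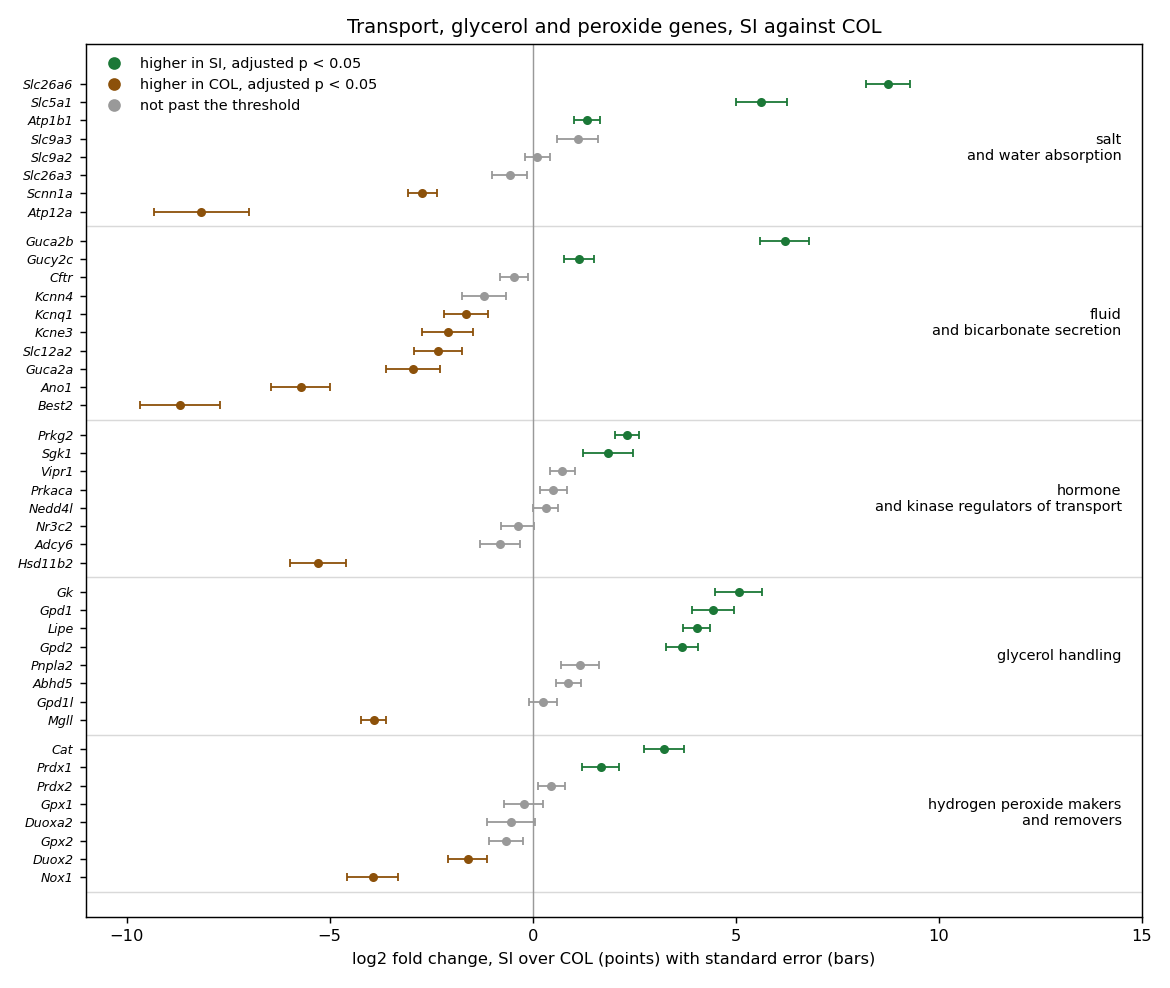
Log2 fold changes of SI over COL with standard errors for tested genes of 5 lists that relate to aquaporin transport, coloured by the edgeR call. Scnn1b is left out because its SI counts are all 0, and values run from -8.70 for Best2 to 8.75 for Slc26a6.

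Genes of fluid and bicarbonate secretion were called in both directions. All 10 were tested, with a median of -1.87 beside -0.09 for all genes. Toward SI 2 were called, against 15.5% of all genes, and 2 were not called. Toward COL 6 were called, against 12.9% of all genes. The largest were the channel genes Best2 (-8.70 ± 0.98, adjusted p = 6.58e-05) and Ano1 (-5.72 ± 0.72, adjusted p = 0.000155), and Guca2a, which encodes the peptide guanylin (-2.95 ± 0.67, adjusted p = 0.00653). The chloride uptake cotransporter gene Slc12a2 (-2.34) and the potassium channel genes Kcne3 (-2.10) and Kcnq1 (-1.64) were also called over all libraries. Within the low and the high mitochondrial share, 4 genes each were called toward COL. Kcne3 (adjusted p = 0.0641 and 0.0783) and Kcnq1 (0.0947 and 0.0838) were called in neither set, and Slc12a2 was not called within the low share (0.0826). Guca2b, the uroguanylin gene (6.20 ± 0.61, adjusted p = 3.29e-05), and Gucy2c, the receptor of both peptides (1.15 ± 0.37, adjusted p = 0.0381), were higher in SI. Gucy2c was not called with library size scaling (0.37, adjusted p = 0.487) or without SI1 and COL2 (0.95, adjusted p = 0.0832).

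Of 10 hormone and kinase regulators of transport, 8 were tested. Of these, 2 were higher in SI, against 15.5% of all genes, 1 was higher in COL, against 12.9%, and 5 were not called. The median was 0.41 beside -0.09 for all genes. No set test was run, so these counts describe the genes only. Hsd11b2, whose enzyme inactivates glucocorticoids at mineralocorticoid targets, was higher in COL by the widest margin (-5.29 ± 0.68, adjusted p = 0.000178). COL had 53.4 ± 3.19 CPM of it and SI 1.37 ± 0.975 CPM (SD, n = 4). The receptor gene Nr3c2 was not called, with 67.1 ± 21.9 CPM for SI and 86.7 ± 46.9 CPM for COL. Prkg2, a cGMP-dependent kinase gene (2.31 ± 0.30, adjusted p = 0.000199), and Sgk1, a kinase gene induced by mineralocorticoids (1.85 ± 0.61, adjusted p = 0.0429), were higher in SI. Sgk1 was not called with limma-voom (adjusted p = 0.0569), with library size scaling (0.164), without SI1 and COL2 (0.0695) or within the low (0.0562) and high (0.205) mitochondrial share. The vasopressin receptor genes Avpr1a and Avpr2 had at most 3 counts in a library.

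The glycerol genes were examined because Aqp3 and Aqp7 pass glycerol. All 8 were tested, with a median of 2.41 beside -0.09 for all genes. Among them, 4 were higher in SI, against 15.5% of all genes, 1 was higher in COL, against 12.9%, and 3 were not called. Glycerol kinase (Gk) reached 489.5 ± 253.3 CPM in SI against 14.6 ± 6.61 CPM for COL (SD, n = 4), a log2 fold change of 5.07 ± 0.58 (adjusted p = 8.55e-05). The glycerol-3-phosphate dehydrogenase genes Gpd1 (4.45 ± 0.52, adjusted p = 9.32e-05) and Gpd2 (3.67 ± 0.39, adjusted p = 5.18e-05) and the lipase gene Lipe (4.03 ± 0.33, adjusted p = 1.54e-05) were higher in SI as well. Mgll, the monoglyceride lipase gene whose enzyme releases glycerol, was higher in COL (-3.92 ± 0.31, adjusted p = 1.29e-05). These 5 calls held with library size scaling, with DESeq2, with limma-voom and with SI1 and COL2 left out. With DESeq2 and with limma-voom, 6 genes were higher in SI. Both tools also called Pnpla2 (adjusted p = 0.0422 and 0.0469) and Abhd5 (0.0468 and 0.0430).

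Aqp8 also passes hydrogen peroxide, and genes that make or remove it were measured. Of 10, 8 were tested. Of these, 2 were higher in SI, against 15.5% of all genes, 2 were higher in COL, against 12.9%, and 4 were not called. The median was -0.38 beside -0.09 for all genes. The genes called toward COL were the oxidase genes Nox1 (-3.94 ± 0.63, adjusted p = 0.000803) and Duox2 (-1.61 ± 0.47, adjusted p = 0.0243). Those called toward SI encode the peroxide-removing enzymes catalase (Cat, 3.23 ± 0.50, adjusted p = 0.000645) and Prdx1 (1.68 ± 0.46, adjusted p = 0.0172). Prdx1 was not called with library size scaling (adjusted p = 0.176). The number called toward COL ran from 1 within the libraries of high mitochondrial share, where Duox2 was not called (adjusted p = 0.0855), to 4 within those of low share. There the peroxide-removing glutathione peroxidase genes Gpx1 (-1.20, adjusted p = 0.0244) and Gpx2 (-1.26, adjusted p = 0.0185) were also called toward COL, and Gpx2 was so with library size scaling (adjusted p = 0.0364). Duox1 and Nox4 were under the filter.

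The tissue difference of the aquaporins was compared between the sexes, with 2 mice of each. No gene passed an adjusted p of 0.05 for the tissue by sex interaction in edgeR, and 761 (5.25%) had an unadjusted p below it. The difference of Aqp7 was 11.57 in females and 6.69 in males on the log2 scale (unadjusted p = 0.00728, adjusted p = 0.909), with 2 and 0 COL counts in the females and 9 and 4 in the males. For Aqp8 it was -4.06 in females and -7.47 in males (unadjusted p = 0.0284, adjusted p = 0.909). The other 4 listed genes had unadjusted p-values of at least 0.386. Both female SI libraries have the low and both male SI libraries the high mitochondrial share, so that sex and this share cannot be told apart in SI.

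The genes whose log2 CPM followed each aquaporin most closely over the 8 libraries were found by Pearson correlation, as a description that includes the tissue difference itself. For Aqp3 they were Epha2 (r = 0.997), Zswim5 and Ormdl3, and for Aqp7 they were Hnf4g (r = 0.996), Sema6a and Slc35e2. For Aqp11 they were Frk (r = 0.997), the pseudogene Vamp7-ps and Hagh. For Aqp8 they were Slc22a23 (r = 0.987), S100a14 and Tfcp2l1, and for Aqp4 Scmh1 (r = 0.990), Slc44a2 and Exosc1. Aqp1 was followed by Gpalpp1 (r = 0.978), Mtmr2 and Utp23. Libraries of the same tissue share its preparation and the 4 mice gave both tissues, so these values carry no p.

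**Figure D5:**
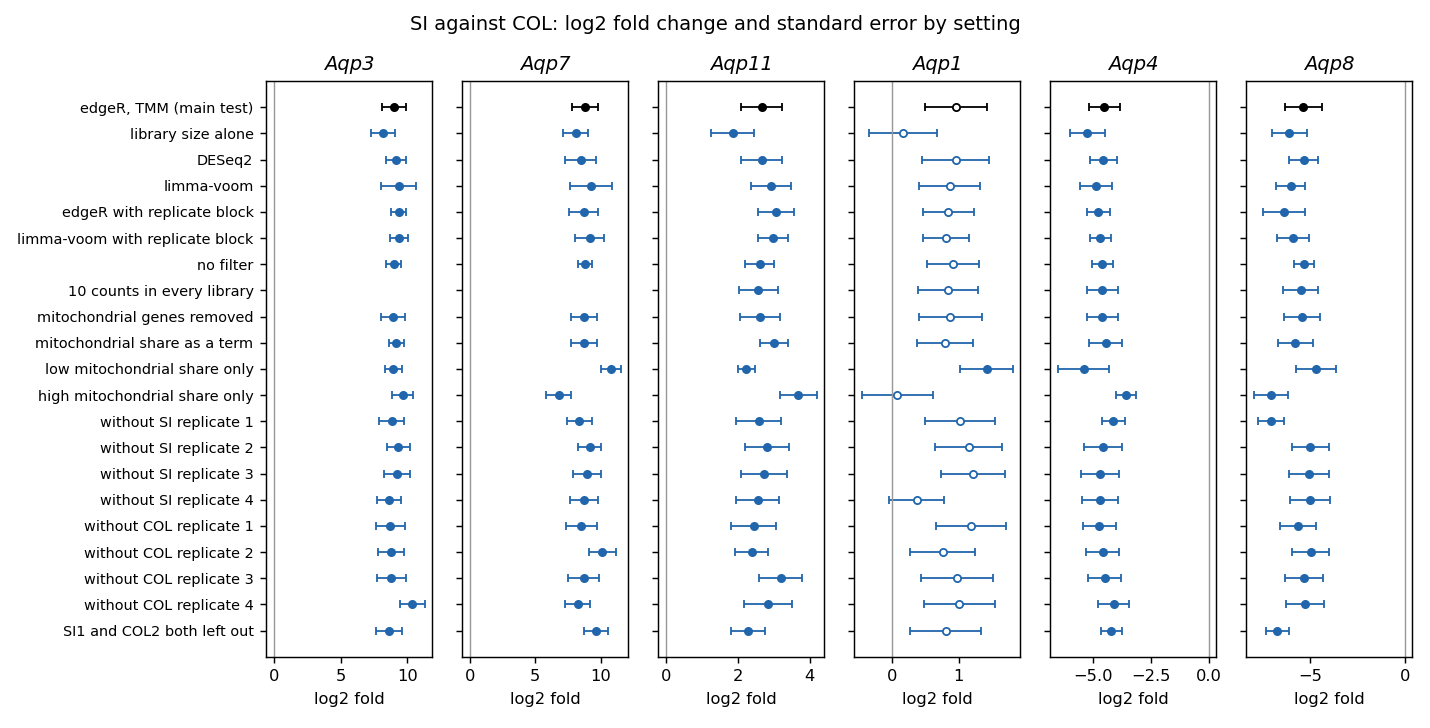
Log2 fold change with standard error of the 6 aquaporins under the main edgeR test and each alternative, where filled points have an adjusted p below 0.05 and open points do not. Aqp1 is filled in the low mitochondrial share libraries only (1.42), and the other 5 genes stay filled and on their side of 0 wherever they were tested.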

How the data were processed

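RNA-Seq was performed on crypts isolated by EDTA chelation. The protocol given for the organoid cultures scrapes the villi off the proximal small intestine and treats the colon longer and with more EDTA. Per the submitters' processing notes, reads were handled with Trimmomatic 0.36 and STAR 2.5.2b, and mm9 and mm10 are both named. The paper names mm10, and the annotation release and the use of strand are not given in the sources used here. The authors deposited whole-number counts per gene without normalization.

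Symbols were matched by Ensembl identifier to GENCODE vM21 (45143 of 45706 matched). SI was tested against COL in R 4.3.3 with edgeR 4.0.16 (glmQLFit, TMM, filterByExpr with a minimum of 10 counts and 15 in all), with Benjamini-Hochberg adjustment over all genes tested and a threshold of 0.05. Single genes were tested by two-sided exact permutation on log2(CPM + 0.1). The alternatives were library size scaling, DESeq2 1.42.0, limma-voom 3.58.1, the donor mouse as a block, other filters, removal of mitochondrial genes, the mitochondrial share as a term or subset (split at 15%), each library left out, and, added after seeing the data, SI1 and COL2 both left out. Fits were tested on simulated data.

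The label numbers name the donor mouse (1, 2, 3 and 5, here replicates 1 to 4), so SI and COL libraries of a number are paired. Over genes, their deviations from the tissue means correlated at -0.24, 0.39, -0.08 and 0.33. The members and lists were chosen with earlier results of these data known. Named are the members, up to 3 called genes per pathway list and direction by size of change, marker genes beside a member, and the 3 genes most correlated with each member (mean log2 CPM of at least 3, prior count 2). Slc12a2, Kcne3, Kcnq1, Gpd2, Nr3c2, Gpx1, Gpx2, the genes near a member and those listed under the filter were named after their values were seen. The same holds for Pnpla2, Abhd5, Vil1, Krt18, Krt20, Tek and Ptprb. A gene of the absorption list is counted but not reported here by name. Depth was 15969428 to 32908060 counts per library, and no column was left out.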

Additional observations from a re-analysis of the deposited data

Results flagged for a closer look

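Of 12 groups of 4 libraries checked, 1 for each aquaporin and tissue, 1 had a library far from the others. Aqp8 was at 26.1 CPM in SI1 and at most 3.30 CPM in the other SI libraries, a gap that took 0.934 of the group's range and exceeded Dixon's critical value for 4 samples. Chance alone marks about 1 in 20 such groups. SI1 was also the SI library with the highest enterocyte and the lowest Paneth cell marker sum and with the lowest Aqp4, 0.951 CPM. Without SI1, Aqp8 remained higher in COL (log2 fold change -7.03 against -5.33).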

How the results depend on the processing

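Aqp3, Aqp4, Aqp7, Aqp8 and Aqp11 kept their direction and their call in every alternative in which they were tested. Aqp1 was called in the libraries of low mitochondrial share only (1.42). With 10 counts required in every library, 3 listed aquaporins were called, because Aqp3 and Aqp7 were not kept. The high mitochondrial share libraries alone gave 2264 called genes, against 4116 with all libraries and 5530 in those of low share, and the cause was not tested. Leaving out 1 library at a time gave 5 called aquaporins throughout, 3167 to 4480 called genes, and log2 fold changes of 0.37 to 1.21 for Aqp1, 8.61 to 10.37 for Aqp3, -4.71 to -4.10 for Aqp4, 8.24 to 10.12 for Aqp7, -7.03 to -4.96 for Aqp8 and 2.39 to 3.19 for Aqp11. With SI1 and COL2 both left out, chosen after seeing the data, the 5 calls remained. The donor mouse as a replicate block in edgeR changed no aquaporin's call and gave 0.85 for Aqp1, 9.37 for Aqp3, -4.76 for Aqp4, 8.70 for Aqp7, -6.36 for Aqp8 and 3.07 for Aqp11, with 4072 genes called, and it changed no count of the pathway lists. Few counts in COL, at most 28 and 9 in a library, limit the precision of Aqp3 and Aqp7.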
